A study of Mus musculus with 10 samples.

Results

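The ADAM genes encode membrane-anchored proteins with a disintegrin and a metalloprotease domain, and 9 of them were examined here by symbol in a table of 25229 genes: Adam10, Adam17, Adam9, Adam12, Adam15, Adam19, Adam8, Adam28 and Adam33. All 9 were found in the table and 8 of them passed the filter on low counts, the exception being Adam28. The libraries came from adipose tissue stem and precursor cells (ASPCs), sorted as CD45-CD31-Pdgfra+ cells from perigonadal white adipose tissue of WT mice, expanded in culture to confluence and not passaged. The 5 DMSO libraries were from cells given the vehicle, and the 5 FICZ libraries from cells given 100 nM FICZ, a tryptophan photoproduct that binds the aryl hydrocarbon receptor (AHR). RNA was collected 6 hr later in both groups, and the libraries of a group are numbered 1 to 5. The total count per library ran from 38328611 to 50210111 in DMSO and from 40272024 to 47670865 in FICZ. No source used here says whether the replicates were separate animals or cultures, so p-values measure the spread between these libraries, which may be technical.

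Active ADAM proteases cut the extracellular part of other membrane proteins from the cell surface, a step called shedding, and so release ligands, receptors and adhesion molecules. They are made with a prodomain that proprotein convertases such as furin remove, and TIMP proteins can inhibit them. In stromal cells they are known for the control of growth factor and Notch signalling and for contacts with integrins and the matrix.

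Of the 9 members 2, Adam33 and Adam28, did not overlap between the groups, both with FICZ higher, and Adam33 was the only one of these with enough counts to be tested. Of all tested genes, which leave out Adam28, 0.351% lay apart with every FICZ library higher and 0.119% with every FICZ library lower. Adam33 encodes a protease expressed mainly in mesenchymal cells, whose human counterpart is known as an asthma susceptibility gene. It lies on the minus strand of chromosome 2 (bases 131050591 to 131063814 in GRCm38 coordinates). Its counts in DMSO replicates 1 to 5 were 797, 876, 734, 828 and 803, and in FICZ replicates 1 to 5 they were 1114, 1168, 997, 1062 and 1207. Counts scaled to library size (CPM, with TMM factors from edgeR) were 20.9, 17.6, 16.8, 19.1 and 16.5 in DMSO and 26.1, 24.8, 25.2, 24.5 and 27.9 in FICZ. The lowest FICZ library (replicate 4) was above the highest DMSO library (replicate 1), so the groups did not overlap. The DMSO mean was 18.2 ± 1.82 CPM and the FICZ mean 25.7 ± 1.38 CPM (SD, 5 libraries per group), 1.41-fold higher with FICZ (95% interval 1.24 to 1.61). Adam33 was singled out with earlier results of these same libraries known, so its separation is a description and not independent evidence of a change. In bulk RNA, fewer cells of a type and less RNA per cell cannot be told apart.

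Whether Adam33 counted as changed depended on the tool. Its log2 fold change was 0.50 (standard error 0.09), with the 6th smallest p among the 14251 genes tested (the 21st with the replicate block), and edgeR's quasi-likelihood test gave an adjusted p of 0.230 over all of them. At an adjusted p of 0.05, edgeR placed 0 of the 8 tested members past the threshold, where 0.0211% of all genes passed. DESeq2, the tool that the study used, placed 1 of the 9 past it, Adam33 with an adjusted p of 0.000277. Of all genes with an adjusted p in DESeq2, 0.0845% passed. With the replicate number as a block, which compares libraries of the same number, edgeR gave Adam33 a log2 fold change of 0.50 (adjusted p = 0.302) and again placed 0 members past the threshold, where 0.0561% of all genes passed. DESeq2 with the replicate block placed Adam33 past it (adjusted p = 0.00927), where 0.14% of all genes passed. On simulated data, DESeq2 made more false calls than its threshold allows, with and without the block. Those data were drawn with edgeR's dispersions and without a replicate effect. How far this bears on the call of Adam33 in these libraries was not tested. At an unadjusted p of 0.05 or less from edgeR there was 1 member higher with FICZ, Adam33, where 1.33% of all genes were, and 0 lower, where 3.49% were. With the replicate block these counts were again 1 and 0, beside 2.48% and 2.17% of all genes.

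Within same-numbered pairs the log2 difference of Adam33 between FICZ and DMSO was 0.32, 0.49, 0.58, 0.36 and 0.76 for pairs 1 to 5. All 5 pairs went the same way, with the smallest difference in pair 1, where DMSO was highest, and the largest in pair 5, where DMSO was lowest and FICZ highest. A two-sided exact permutation test on log2 CPM gave p = 0.00794, the smallest that 5 libraries against 5 allow. For the pairs, the exact sign-flip test gave p = 0.0625, the smallest that 5 pairs allow, so it cannot pass 0.05.

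No annotated gene overlaps Adam33, and 0% of the 50-base words of its transcripts occur in transcripts of other genes. Its 3 protein-coding neighbours within 50000 bases, like Adam33 itself, did not pass in edgeR's test (adjusted p = 0.999 for each neighbour). Atrn, 20258 bases away, had a log2 fold change of 0.02 (standard error 0.11). Gfra4, a receptor gene 7503 bases away on the same strand, had 0.05 (standard error 0.17). Siglec1, a macrophage lectin gene 5406 bases away, had between 32 and 94 counts per library and -0.39 (standard error 0.29).

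**Figure D1:**
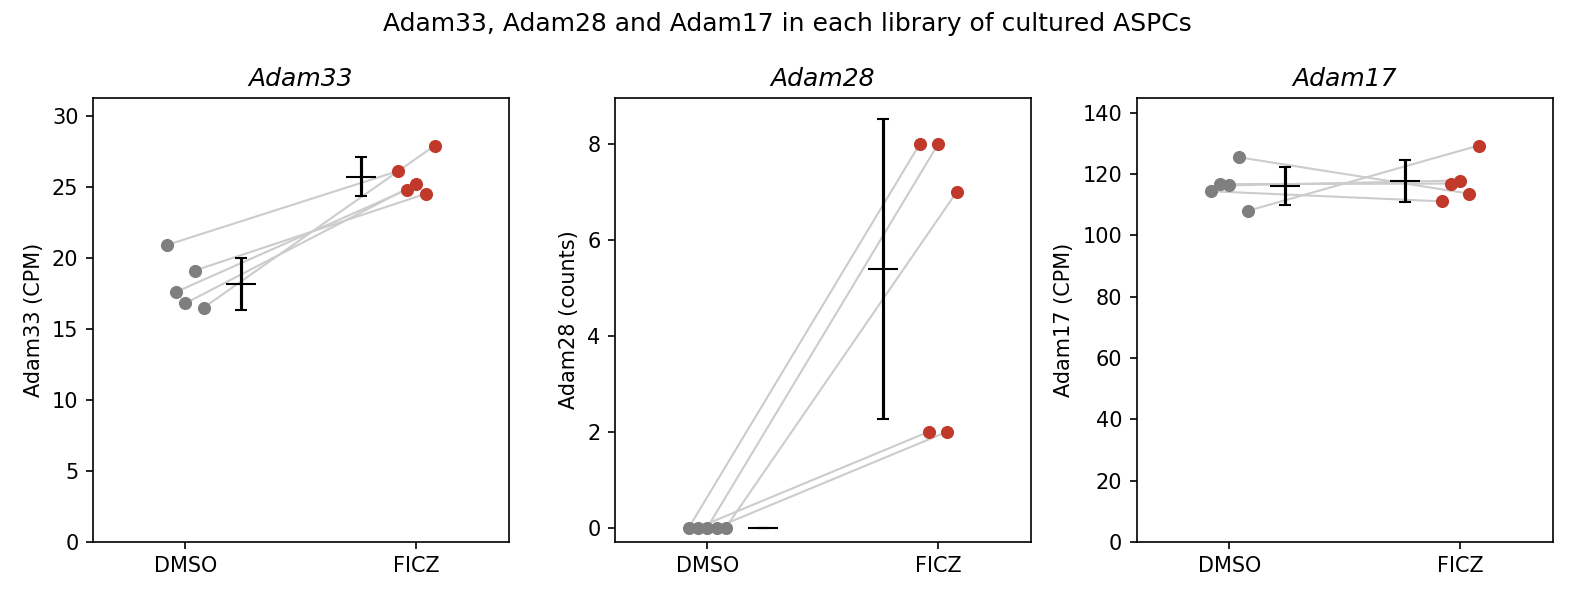
Adam33 (CPM), Adam28 (counts) and Adam17 (CPM) in each of the 5 DMSO and 5 FICZ libraries; points are libraries, grey lines join libraries of the same number, and black bars show the mean and SD. Adam33 and Adam28 do not overlap between the groups, with Adam28 at 0 in all 5 DMSO libraries, while Adam17 does overlap.

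Adam28, an ADAM gene known from lymphocytes and from epididymal epithelium, lies on chromosome 14 (68606027 to 68655842, minus strand) and was under the filter on low counts. It had 0 counts in each of the 5 DMSO libraries and 8, 2, 8, 2 and 7 counts in FICZ replicates 1 to 5. Every FICZ library therefore had reads and no DMSO library did, with the higher values in FICZ replicates 1, 3 and 5. The FICZ total of 27 counts has a 95% Poisson interval of 17.8 to 39.3, and a total of 0 in DMSO allows up to 3 counts over the group, or 0.0135 CPM against 0.124 CPM in FICZ. Against that floor Adam28 was at least 9.2-fold higher with FICZ, a bound that covers counting error in DMSO only. At the lower Poisson limit of the FICZ total the bound was 6.07-fold. An exact permutation test gave p = 0.00794, again the smallest possible. Without a filter, edgeR gave an adjusted p of 1 and, with the replicate block, 0.964, and DESeq2 gave 0.0906 and 0.567 in the same order, so Adam28 did not pass over all genes.

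A row can show the pattern of Adam28 only with 0 counts in every DMSO library, as 6620 rows had. In the whole table, 5934 rows had no count in any library. Of all 25229 rows, 0.0198% (5 rows) had 0 counts in every DMSO library and at least 1 in every FICZ library. The reverse was seen in 0.00396%. Most rows could not show either pattern, so these shares do not measure how unusual Adam28 is. Among the rows of the first share, 2410003L11Rik with 11 FICZ counts in all and Igll1 with 10 are named here after their values were seen, and both had fewer reads than Adam28. The reverse was 1 row, Il1rapl1, with 15 DMSO counts in all. No gene overlaps Adam28, and 0.564% of its 50-base words occur in other genes. Its neighbour Adamdec1, a soluble ADAM-like protease of macrophages 23932 bases away, had between 2 and 8 counts in DMSO and between 2 and 9 in FICZ. Adam7, the epididymal gene beyond Adamdec1, had 1 count over all DMSO libraries, in replicate 3, and 2, 0, 2, 0 and 1 counts in FICZ replicates 1 to 5. Its FICZ counts were thus in the replicates where Adam28 was higher, with too few reads to compare further. Of the other epididymal genes examined, Lcn5, Crisp1, Eppin and Defb20 had 0 counts in all 10 libraries. Of the lymphocyte genes, Cd79a of B cells had between 0 and 9 counts per library and Cd3e of T cells between 0 and 4.

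Adam10 and Adam17 are the best known sheddases of the family. Adam10 cuts Notch receptors after ligand binding, and Adam17, also called TACE, releases TNF and several EGF receptor ligands. Adam17 (chromosome 12) had 114, 117, 116, 126 and 108 CPM in DMSO replicates 1 to 5 and 111, 117, 118, 114 and 129 CPM in FICZ. Both the lowest and the highest of its libraries were numbered 5, DMSO and FICZ respectively, and the groups overlapped. Its log2 fold change was 0.02, with a 95% interval of -0.13 to 0.17. Adam10 (chromosome 9) had 179, 216, 207, 193 and 217 CPM in DMSO and 195, 223, 216, 189 and 227 CPM in FICZ. Its groups overlapped as well, with replicates 1 and 4 low in both, and its log2 fold change was 0.05 (95% interval -0.13 to 0.24). For both sheddases the interval leaves out a change as large as the lower bound for Adam33, which was 0.31 on the log2 scale.

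Adam9, Adam12, Adam15 and Adam19 are further catalytically active members. Adam9, Adam12 and Adam19 are the meltrins, first described in myoblasts, and Adam12 is also known as a marker of activated stromal progenitors. Adam9 (chromosome 8) had 581, 635, 629, 497 and 466 CPM in DMSO replicates 1 to 5 and 579, 646, 632, 521 and 551 CPM in FICZ. Replicates 2 and 3 were high and replicates 4 and 5 low in both groups, so the libraries followed the replicate number more than the treatment. Adam19 (chromosome 11) had a mean of 328 CPM in either group (SD 42.8 in DMSO and 38.6 in FICZ, n = 5 libraries per group), with replicate 3 the highest in both. Adam12 (chromosome 7) varied most among these 4 genes in FICZ relative to its mean (SD 19.0% of it), from 143 CPM in replicate 1 to 242 CPM in replicate 4, and had 179.8 to 251.7 CPM in DMSO. Adam15 (chromosome 3) had 89.8 to 103 CPM in DMSO and 84.8 to 102 CPM in FICZ. Their log2 fold changes in edgeR's test were 0.06 for Adam9, -0.04 for Adam12, 0.005 for Adam15 and 0.001 for Adam19, and the adjusted p was 0.999 for each. The signs of such small values are not informative: without both libraries numbered 5, a setting added once the data had been looked at, Adam19 had -0.05.

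Adam8, a protease gene of leukocytes and other inflammatory cells, was the lowest of the tested members. It had 44, 61, 70, 68 and 25 counts in DMSO replicates 1 to 5 and 49, 90, 65, 59 and 60 in FICZ. DMSO replicate 5 was lowest and FICZ replicate 2 highest, and the other libraries of the groups overlapped. The log2 fold change was 0.30 with a 95% interval of -0.33 to 0.93, and this interval includes the value for Adam33 as well as 0. Without both libraries numbered 5 it was 0.12. For Adam8 and the 6 members of the preceding paragraphs, exact permutation p-values ran from 0.31 to 0.968, and all 7 overlapped between the groups.

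**Figure D2:**
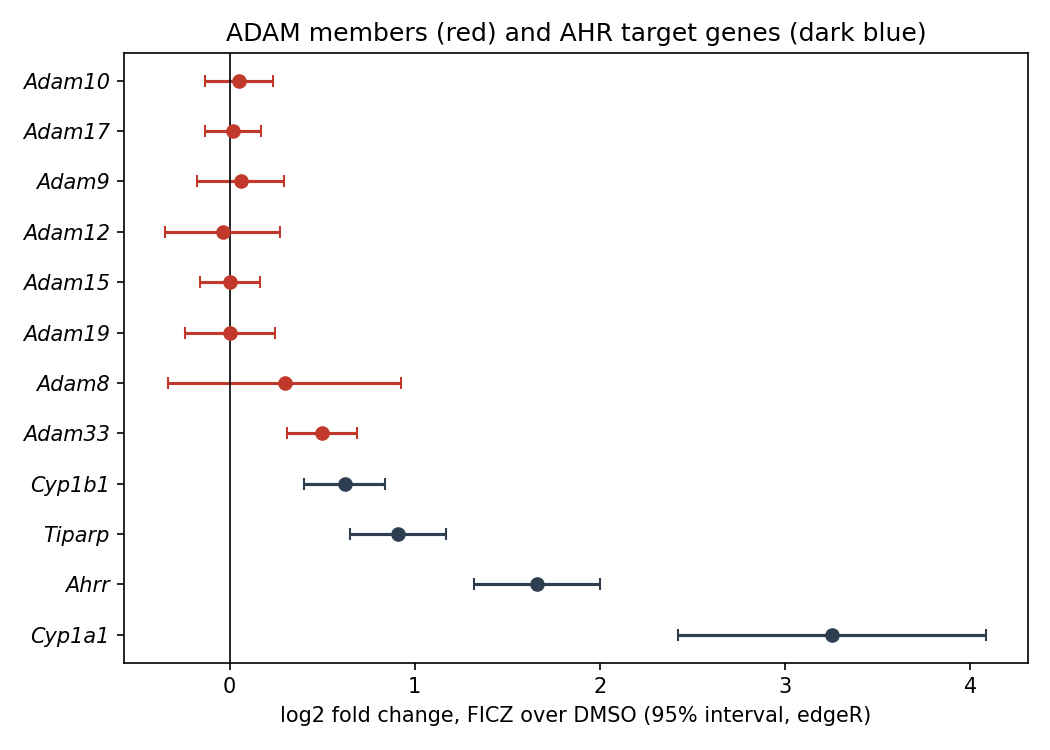
Log2 fold changes of FICZ over DMSO from edgeR with 95% intervals, for the 8 tested ADAM members and for 4 known AHR target genes. The interval of Adam33 (0.31 to 0.69) lies above 0, those of the other 7 members span 0, and the AHR target genes lie between 0.62 and 3.25.

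The counts of some members can include reads of other genes, because the strand setting of the counting is not given in the sources used here. An antisense gene, 4731419I09Rik, overlaps 20.55% of the exonic bases of Adam15. Adam19 shares 8.25% and 6.75% with the antisense genes Gm16033 and Gm16034, and Adam17 shares 4.35% with Iah1 on the opposite strand. Of the 50-base words of Adam12, 3.03% occur in other genes, while for Adam8, Adam9 and Adam10 the share was 0%.

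Levels were compared between members per kilobase of merged exons. In DMSO, Adam9 was highest at 136.5 ± 18.7 CPM per kb (SD, n = 5 libraries), 2.96 times the level of Adam19, and their libraries did not overlap. Adam19 (46.1 ± 6.01 CPM per kb) and Adam10 (41.2 ± 3.32) followed and could not be separated, since their libraries overlapped. Adam12 (19.7 ± 2.72), Adam17 (16.2 ± 0.877) and Adam15 (15.4 ± 0.835) formed the next group, each overlapping its neighbour in this order. Compared within libraries, Adam12 was above Adam17 in every DMSO library. Adam19 was above Adam10, and Adam17 above Adam15, in all but DMSO replicate 5. Adam33 was clearly lower at 3.37 ± 0.338 CPM per kb, with Adam15 at 4.57 times its level. Adam8 was lower again at 0.261 ± 0.0946 CPM per kb, and Adam28 was at 0. With FICZ, Adam33 had 4.76 ± 0.256 CPM per kb and stayed 7th in this order. Adam9 alone made up 48.8% ± 2.77 of the summed CPM per kb of the 9 members in DMSO and 49.5% ± 2.69 in FICZ, and Adam33 1.22% ± 0.171 and 1.66% ± 0.15 (SD, n = 5 libraries each). The summed level was 278.8 ± 25.2 CPM per kb in DMSO and 287.5 ± 18.4 in FICZ, a difference within the spread (exact permutation p = 0.524).

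**Figure D3:**
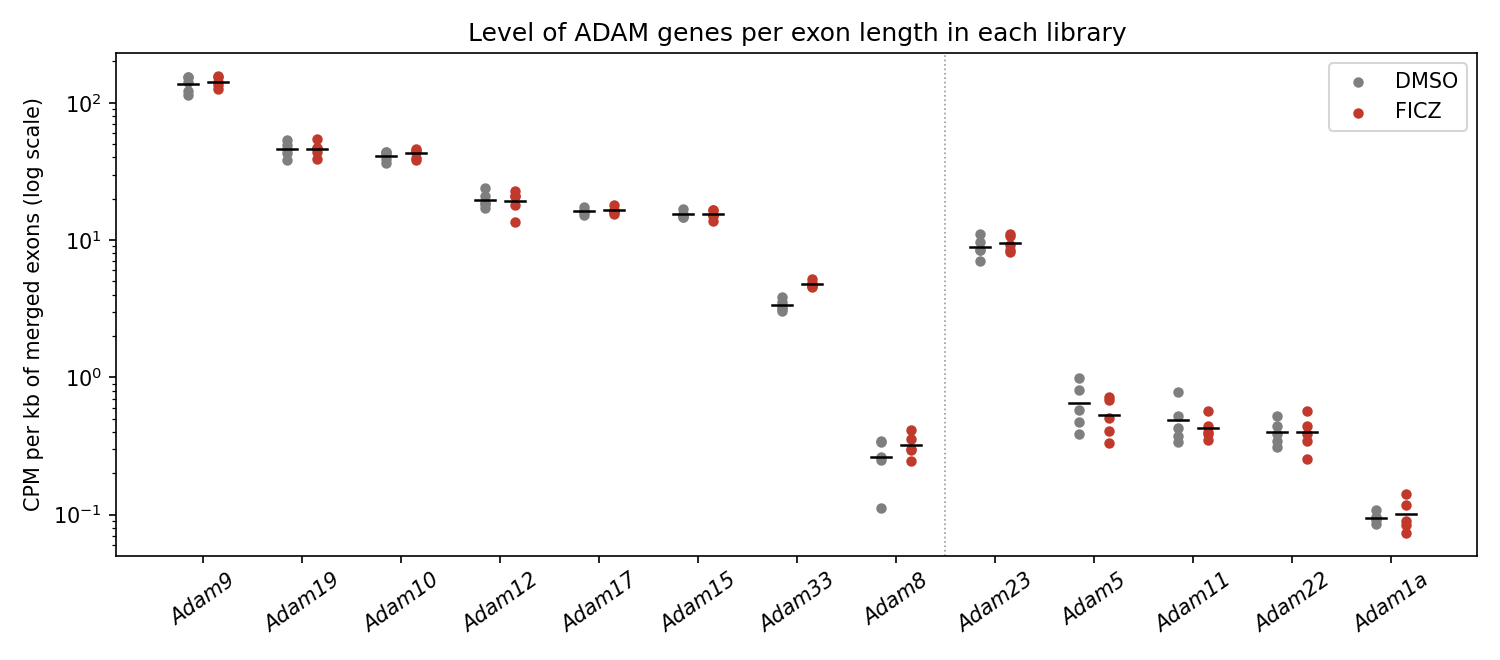
Level of 13 ADAM genes in CPM per kb of merged exons, on a log scale, in each DMSO and FICZ library; black lines are group means, and the dotted line separates the 8 tested members from 5 other ADAM genes. Adam9 is the highest at 136.5 CPM per kb in DMSO. Among the members, Adam33 at 3.37 CPM per kb lies between Adam15 and Adam8. Adam28, at 0 in DMSO, is not drawn.

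Of 25 other ADAM rows in the table, 12 had no count in any library, 8 had at most 17 counts per library, and 5 were tested. Among those 5, Adam23, a member without protease activity that is known from the nervous system, had 160.2 ± 27.0 CPM with DMSO and 170.2 ± 23.0 with FICZ. Per kilobase Adam23 was above Adam33 in DMSO, at 8.95 ± 1.51 CPM per kb of merged exons, or 24.9 by the longest transcript, where Adam33 had 5.08. Adam22 and Adam11, likewise inactive as proteases, had 5.74 and 2.76 CPM in DMSO, Adam5 had 2.02 CPM and Adam1a 0.712 CPM. The log2 fold changes of the 5 ran from -0.29 for Adam5 to 0.09 for Adam1a, and 0 passed in edgeR or DESeq2. Of the 50-base words of Adam1a, 77.8% occur in other genes, so its counts are uncertain. On chromosome 8, Adam9 lies 806 bases from Adam32, the next of a row of ADAM genes, yet Adam9 had 136.5 CPM per kb in DMSO and Adam32 0.061.

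Among 24 ADAMTS and ADAMTS-like genes, secreted relatives of the family that act on the matrix, 21 were tested and 0 passed in edgeR or DESeq2. The median log2 fold change was 0.03, beside 0.01 over all genes tested. Adamts5 and Adamts1, which cut aggrecan and versican, were the most counted, with log2 fold changes of 0.04 (standard error 0.11) and 0.09 (standard error 0.14). By edgeR, Adamtsl2 alone had an unadjusted p of 0.05 or less, and only with the replicate block, where 2.17% of all genes were lower at that p and its log2 fold change was -0.43 (standard error 0.18, edgeR adjusted p = 0.929).

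Genes that act on ADAM proteases were examined as lists. Of 9 iRhom, Frmd8 and TspanC8 tetraspanin genes, which guide Adam17 and Adam10 to the surface, 8 were tested and 0 passed, with a median log2 fold change of -0.06 beside 0.01 over all genes tested. Frmd8 and Tspan5, the most counted, had log2 fold changes of -0.02 (standard error 0.12) and -0.01 (standard error 0.08). Of 5 inhibitors, the TIMP genes and Reck, 5 were tested and 0 passed (median -0.05). Timp1 and Timp2 had -0.05 and 0.01, while Timp3, the TIMP that inhibits Adam17, had a log2 fold change of -0.17, or -0.19 with the replicate block (standard error 0.08, edgeR adjusted p = 0.929) and was lower with FICZ in 4 of 5 pairs. The 4 proprotein convertase genes ranged from -0.04 to 0.12, with Furin at -0.02 and Pcsk6 at 0.12. The 11 genes of proteins that bind ADAM tails ranged from -0.14 for Sh3pxd2b to 0.09, with Snx9 at 0.01. In DESeq2, with and without the block, 0 genes of these lists passed either.

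Substrate genes were examined in the same way, and the RNA of a substrate does not measure its shedding. Of 14 Adam10 substrate genes, all 14 were tested and 0 passed, with a median log2 fold change of 0.03 beside 0.01 over all genes tested. App and Cd44, the most counted, had log2 fold changes of 0.04 and 0.06. Jag1, a Notch ligand, was lower with FICZ in 5 of 5 pairs, from a mean of 23.3 ± 1.91 CPM to 20.4 ± 2.9 CPM, and had -0.20 with the replicate block (standard error 0.08, edgeR adjusted p = 0.929). Of 16 Adam17 substrate genes, 14 were tested and 0 passed, with a median log2 fold change of 0.06. Vcam1, the gene of an adhesion molecule, had FICZ above DMSO in 5 of 5 pairs, and only DMSO replicate 5 reached into the FICZ range. Its log2 fold change was 0.43 (standard error 0.15, edgeR adjusted p = 0.999), and 0.45 with the replicate block (adjusted p = 0.637). In the same list Sdc4 was higher and Il6ra lower with FICZ in 5 of 5 pairs. Their log2 fold changes were 0.13 (standard error 0.24) and -0.14 (standard error 0.07). In other lists Pcsk6 was higher, and Adamtsl2, Tspan15 and Fgfr2 were lower, in 5 of 5 pairs as well. The share of all genes that went 1 way in 5 of 5 pairs was not computed, so such counts are descriptions only.

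Ereg, the gene of the EGF receptor ligand epiregulin, was at 20.5 ± 12.2 CPM with DMSO and at 29.8 ± 19.7 CPM with FICZ (SD, 5 libraries per group). Replicate 3 was highest and replicate 5 lowest in both groups, and FICZ was higher in 5 of 5 pairs. With the replicate block its log2 fold change was 0.51 (standard error 0.11, edgeR adjusted p = 0.604), and without it the standard error was 0.47. Csf1 and Tnfrsf1a, the most counted Adam17 substrate genes, had 0.10 (standard error 0.18) and 0.04 (standard error 0.09). Tnf had at most 16 counts in a library. Of 8 genes of substrates assigned to other members, 7 were tested and 0 passed (median 0.15). Igfbp5, whose protein binds insulin-like growth factors and is cut by Adam9 and Adam12, was at 5.56 ± 1.73 CPM with DMSO and 8.48 ± 1.84 CPM with FICZ, higher in 4 of 5 pairs (log2 fold change 0.61, standard error 0.22, edgeR adjusted p = 0.999). Kitl, a substrate reported for Adam33, had 0.17 (standard error 0.17), and Igfbp3 had -0.15 (standard error 0.13).

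Downstream of ADAM cleavage, 0 of the gamma-secretase subunit genes passed in edgeR or DESeq2. Psen2, a catalytic subunit, was lower with FICZ in 5 of 5 pairs, from a mean of 20.7 ± 4.07 CPM to 16.4 ± 1.76 CPM (log2 fold change -0.33, standard error 0.14, edgeR adjusted p = 0.999). Ncstn, the most counted of these genes, had -0.06 (standard error 0.11). Of 6 Notch target genes 2 were tested, Hes1 at 0.23 (standard error 0.19) and Heyl at -0.38 (standard error 0.32). Of 8 integrin genes whose products bind disintegrin domains 7 were tested and 0 passed (median -0.04). Itgb1 and Itgav, the most counted, had 0.07 and -0.07, and Itga6 was higher in 5 of 5 pairs, at 0.15 with the replicate block (standard error 0.06, edgeR adjusted p = 0.929).

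The 4 AHR target genes used as controls of the treatment were all higher in every FICZ library, with Cyp1b1 at a log2 fold change of 0.62, Tiparp at 0.91, Ahrr at 1.66 and Cyp1a1 at 3.25. The genes nearest to Adam33 in pattern were found by the root mean square difference of centred log2 CPM over the 10 libraries. They were Gpc1 (0.094), Gsdmd (0.117), Xdh (0.126), Exoc3 (0.132) and Tmco4 (0.149), beside a median of 0.336 over the other genes tested. Since they were picked for their likeness to Adam33, their own differences between the groups follow from the choice.

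The labelled cell type was checked against marker genes. Summed over 9 stromal markers the level was between 5857.5 and 8795.2 CPM per library, with Col1a1 the most abundant and Pdgfra, the sorting marker, at 1319.7 ± 88.3 CPM with DMSO and 1387 ± 118 CPM with FICZ. Cd34 had a log2 fold change of -0.18 with the replicate block (standard error 0.07). Summed over 12 leukocyte markers the level was between 25.2 and 59.0 CPM, highest in DMSO replicate 5, with Csf1r and Cd68 the most abundant, 7 of the 12 under 1 CPM, and Ptprc, the gene of CD45, at 0.745 CPM (DMSO) and 0.354 CPM (FICZ). Tyrobp, Fcer1g and Cd74 had log2 fold changes of -1.39, -1.15 and -1.11 with unadjusted p of 0.05 or less in edgeR. At that p 3.49% of all genes were lower, and only Fcer1g kept this with the replicate block. Each was highest in DMSO replicate 5, at 2.13, 1.42 and 14.5 CPM in this order. Of the 10 tested leukocyte markers 2 had the higher mean in FICZ and 8 in DMSO, with a median log2 fold change of -0.78. Csf1r had 0.07.

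The 6 endothelial markers summed to between 64.9 and 87.3 CPM, most of it Tek and then Kdr. Pecam1, the gene of CD31, had 1.48 CPM (DMSO) and 1.01 CPM (FICZ). With the replicate block Pecam1 and Emcn had log2 fold changes of -0.61 (standard error 0.26) and -0.84 (standard error 0.29). Both had an unadjusted p of 0.05 or less in that fit, beside 2.17% of all genes lower at that p. Tek had a log2 fold change of 0.02, or 0.03 with the block. Of the 6 tested, 1 had its higher mean in FICZ and 5 in DMSO. The 6 mesothelial and epithelial markers summed to between 62.6 and 86.7 CPM, most of it Wt1, and of the 5 tested 1 had its higher mean in FICZ and 4 in DMSO. Upk3b had a log2 fold change of 0.31 without and 0.32 with the replicate block, and Cdh1 -1.02 and -0.84 in the same order. Cdh1 had 2.57 CPM in DMSO replicate 5 and between 0.504 and 1.39 CPM in the other DMSO libraries. The 5 smooth muscle markers summed to between 335.7 CPM in DMSO replicate 5 and 1032.7 CPM in FICZ replicate 3, led by Tagln and Acta2. No marker of these lists was at 0 in all libraries, 0 passed in edgeR or DESeq2, and their part in the values of the members was not tested.

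Hepatocyte genes were also counted, from 1505 CPM summed over 8 genes in DMSO replicate 2 to 8612.4 CPM in DMSO replicate 5. The other DMSO libraries had 3602.3, 1717 and 3551 CPM (replicates 1, 3 and 4), and the FICZ libraries between 1632.2 and 2191.8 CPM, with Alb and Trf the most abundant genes. Of the 8 genes 7 had an unadjusted p of 0.05 or less in edgeR, namely Alb, Apoa1, Apoa2, Ttr, Fgb, Serpina1c and Ahsg, all lower with FICZ, beside 3.49% of all genes lower at that p, and 0 passed after adjustment. With the replicate block 0 of the 8 were at that p, beside 2.17% of all genes lower, and each was lower with FICZ in 3 of 5 pairs. The log2 fold changes of the 7 ran from -1.15 to -1.09 without the block and from -0.80 to -0.73 with it, and Trf had -0.52 and -0.39. DMSO replicate 5 was also the library with the lowest Adam33, Adam8, Adam9, Adam17 and Adam19 CPM. Other members did not share this: there Adam10 was at its highest in DMSO (216.8 CPM). Adam12 (195.9 CPM) and Adam15 (95.8 CPM) lay inside the range of the other DMSO libraries. Without DMSO replicate 5 the log2 fold change of Adam33 was 0.47, and without both libraries numbered 5 it was 0.43.

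For promoters, 5 of the 9 members were matched by symbol in the copy used here of the RefSeq table of the GRCm38.p6 build. They had 7 windows of 250 bases before to 50 after a gene start. Adam9, Adam12, Adam28 and Adam33 were not matched, so their promoters were not examined. The windows were searched on both strands for GCGTG, the core of the element that AHR and ARNT bind, and for the longer TNGCGTG, which holds the core. The core occurs in 32.4% of all 32851 promoter windows and the longer motif in 5.1%. It was found in the windows of 4 members, Adam10, Adam15, Adam17 and Adam19, none of which passed a test with FICZ, and not in that of Adam8, and the longer motif in 0 members. Sites outside the windows were not searched, so equal counts within them do not mean equal numbers of AHR elements per gene. Of the AHR target genes, Cyp1a1, Tiparp and Cyp1b1 had 1 core and 0 longer motifs each within the window, as did Adam10, Adam15 and Adam17. Only Ahrr had 3 cores and 1 longer motif. All 4 passed in DESeq2, with and without the replicate block, while with edgeR Cyp1a1 and Ahrr passed in both fits, Cyp1b1 in neither and Tiparp only without the block (adjusted p = 0.0335, and 0.0509 with it). The windows of Adam10 (chr9:70678732-70679031, plus strand), Adam15 (chr3:89349979-89350278, minus strand), Adam17 (chr12:21373583-21373882, minus strand) and Ahrr (chr13:74292282-74292581, minus strand) are shown to set members with the core beside a gene that rose. Capitals mark the core, which reads CACGC where it lies on the opposite strand. A match is a description of letters and not a binding site.
Adam10: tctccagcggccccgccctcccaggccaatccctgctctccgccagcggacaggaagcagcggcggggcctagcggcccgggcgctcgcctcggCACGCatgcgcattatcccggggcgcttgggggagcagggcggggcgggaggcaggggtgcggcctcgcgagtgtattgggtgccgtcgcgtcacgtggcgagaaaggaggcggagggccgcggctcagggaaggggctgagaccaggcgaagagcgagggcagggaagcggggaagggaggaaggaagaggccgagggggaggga
Adam15: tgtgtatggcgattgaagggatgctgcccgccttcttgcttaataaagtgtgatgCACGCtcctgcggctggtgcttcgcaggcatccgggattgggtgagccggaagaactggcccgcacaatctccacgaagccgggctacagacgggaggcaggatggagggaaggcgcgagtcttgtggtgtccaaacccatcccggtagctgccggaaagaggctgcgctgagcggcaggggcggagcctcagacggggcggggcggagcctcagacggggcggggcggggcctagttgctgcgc
Adam17: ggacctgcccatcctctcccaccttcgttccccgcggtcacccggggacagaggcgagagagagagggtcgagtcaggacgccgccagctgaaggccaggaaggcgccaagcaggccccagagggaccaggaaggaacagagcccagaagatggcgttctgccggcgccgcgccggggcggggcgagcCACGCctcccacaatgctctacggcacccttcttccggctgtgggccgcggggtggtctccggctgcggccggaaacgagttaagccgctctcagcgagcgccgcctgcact
Ahrr: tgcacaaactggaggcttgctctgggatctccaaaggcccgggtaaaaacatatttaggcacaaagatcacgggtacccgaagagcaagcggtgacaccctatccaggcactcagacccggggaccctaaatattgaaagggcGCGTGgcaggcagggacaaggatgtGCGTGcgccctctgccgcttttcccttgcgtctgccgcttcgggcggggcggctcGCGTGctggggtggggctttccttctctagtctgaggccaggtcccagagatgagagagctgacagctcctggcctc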

How the data were processed

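Bulk RNA sequencing of cultured ASPCs was analysed, with 5 libraries treated with DMSO and 5 with FICZ. The authors aligned reads with STAR 2.7.7 to mm10 and deposited a table of raw counts by gene symbol, which was not normalized. The counting program, annotation and strand setting are not given in the sources used here. Genes were tested with edgeR 4.0.16 (R 4.3.3) by the quasi-likelihood test with TMM normalization, robust dispersions and filterByExpr, which left 14251 genes, with Benjamini-Hochberg adjustment over all of them and a threshold of 0.05. DESeq2 1.42.0, the tool that the study names for differential expression, and limma-voom (limma 3.58.1) were alternatives. The procedures were tested on simulated data, where all recovered most of the larger changes and fewer of the smallest. False calls with edgeR and limma-voom were close to the threshold, and those with DESeq2 were clearly above it. The simulated libraries were drawn independently, with edgeR's dispersions and no replicate effect, so the block was not tested on paired libraries. Log2 CPM used a prior count of 2. Exon lengths came from GENCODE M21.

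The labels give both groups the same replicate numbers. Deviations from the group means correlated in each same-numbered pair (0.154 to 0.317), so the numbers were taken to pair the libraries, and fits with the replicate block were run. The mean for different numbers was -0.0599. Centring within groups largely fixes that mean once the pairs are given, so it is no independent reference.

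The members and gene lists were chosen with earlier results of these data known. Named were the 9 members, other ADAM genes with a mean of at least 0.5 CPM, the AHR controls, and of each list up to 2 of the most counted genes and those with an unadjusted p of 0.05 or less with or without the block. The 5 genes nearest to Adam33 and its neighbours on the chromosome were named too. Ptprc, Tnf, Cd79a, Cd3e, Sdc4, Il6ra, Tspan15, Fgfr2 and the epididymal genes were named after their values were seen. Alternatives were other scalings, filters, tools, prior counts and lengths, and leaving out each library. Leaving out both libraries numbered 5, and the block without a filter for Adam28, were added after the data were seen. The floor of 3 counts and the Poisson interval cover counting error only.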

Additional observations from a re-analysis of the deposited data

Results flagged for a closer look

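Of 35 groups of 5 libraries, over the ADAM genes with a mean of at least 0.5 CPM, Adam28 and the AHR controls, 1 had a single library set off from its group, against about 1.8 such groups by chance. It was Ahrr in DMSO replicate 4, the lowest of its group at 271 counts, whose gap to the nearest library was 0.857 of the group's range. No group of an ADAM gene had such a library.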

How the results depend on the processing

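With edgeR, 3 genes passed over the whole table, against 8 with the replicate block, 16 with DESeq2, 26 with DESeq2 and the replicate block, between 1 and 4 when each library was left out in turn, and 0 without both libraries numbered 5. The count fell to 1 without DMSO replicate 1 or 2 or without FICZ replicate 1, 2 or 3. Of the members, 1 passed with DESeq2, with or without the replicate block, and 0 in each other setting. The log2 fold change of Adam33 was 0.496 (adjusted p = 0.000277) with DESeq2 and 0.498 (adjusted p = 0.00927) with DESeq2 and the replicate block, and the cause of this and of the other differences between settings was not tested. It ran from 0.457 to 0.538 when each library was left out, with edgeR adjusted p between 0.189 and 0.685, and the adjusted p with edgeR and limma-voom stayed above 0.05 in every setting tried. For the 7 other tested members, all 147 values under the alternatives kept an adjusted p above 0.05 (lowest 0.932), and 34 of them had the opposite sign to the reported value. In the paired sign-flip test, the differences in mean log2 CPM of 1.79 for Adam28 and 0.501 for Adam33 had p = 0.0625, the smallest that the 32 exact arrangements allow. The value of Adam28 is set by the prior count of 2 (3.373 with 0.5) and is no bound on its fold. In edgeR and DESeq2 the replicate block changed no call of a member. By the longest transcript in place of merged exons, levels in DMSO were 27.2 CPM per kb for Adam12, 24.2 for Adam15, 26.0 for Adam17 and 5.08 for Adam33, and the order of the 9 members was the same. Adam28 was under the filter on low counts. Depth limits of others were not tested.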
